A study of Mus musculus with 15 samples.

Results

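Liver RNA of mice given kaempferol on a high-fat diet was compared with liver RNA of mice on standard feed, in 6 of the 15 libraries of the series. The 3 kaempferol libraries and the 3 control libraries were taken by their titles. All animals were wild type per the labels. Control mice received the standard feed for 6 weeks, and no gavage is named for them. Kaempferol mice received a high-fat diet over the same 6 weeks and 100 mg/kg/day of the flavonol by gavage. The labels do not describe that diet further. For the model group of the same series the feed made up 78.8% of the diet, with lard and egg yolk powder at 10% each, cholesterol at 1% and sodium cholate at 0.2%. The comparison thus asks what still differs from normal liver when kaempferol accompanies the diet. Diet, compound and gavage differ together between the groups and cannot be told apart within it. Strain, sex, age, fasting and hour of collection were not given in the sources used here, nor whether each library came from a separate mouse, so p-values measure the spread between libraries, which may be technical.

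Kaempferol is a plant flavonol. Hepatocytes match cholesterol made inside the cell to cholesterol taken in. When sterols are scarce, SREBP2 is released from the endoplasmic reticulum and switches on the synthesis enzymes. When sterols and their oxidised forms accumulate, SREBP2 is held back, and the nuclear receptor LXR switches on sterol export. Fat synthesis is driven in addition by insulin, through SREBP1c. Non-parenchymal cells, chiefly endothelial cells and Kupffer cells, the resident macrophages of the liver, share the tissue with hepatocytes.

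The 6 libraries held 15.99 to 17.4 M expected counts over 14615 to 14929 genes with counts. Albumin took 4.28% to 7.81% of the counts, so liver is the tissue that was measured. Control replicate 1 stood closer to the kaempferol libraries than the other controls did. Across genes its log2 CPM correlated at 0.970 to 0.976 with them, while control replicates 2 and 3 correlated at 0.958 to 0.964. On the first principal component, which held 53.3% of the variance, control replicate 1 lay at -14.7, the other controls at -36.9 and -38.2, and the kaempferol libraries at 28.4 to 32.1. Kaempferol replicate 8 stood apart in some macrophage genes. Levels are CPM, each count scaled to the TMM-adjusted total of its library, and changes are log2 fold changes ± SE with kaempferol minus control, so a positive value means a higher level with kaempferol. Sizes after rose by or fell by are on that log2 scale. A gene was said to rise or fall when its edgeR quasi-likelihood p, adjusted by Benjamini-Hochberg over all genes tested, was under 0.05.

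Of 12658 genes tested, 1697 passed (13.4%), 995 of them higher (7.86%) and 702 lower (5.55%) with kaempferol. The CPM ranges of the groups did not overlap for 4240 genes (33.5%). The median change over all genes tested was 0.00. Counts of list members given below are to be read against the 7.86% higher and 5.55% lower among all genes. Cholesterol synthesis genes, heat shock genes and endoplasmic reticulum stress genes held large shares of falling members. Markers of macrophages, endothelial cells and B cells, interferon-stimulated genes and sterol export genes held large shares of rising ones. Leaving out control replicate 1 gave 1941 genes, control replicate 2 gave 766 and control replicate 3 gave 809. Leaving out kaempferol replicate 3 gave 1055, replicate 5 gave 1256 and replicate 8 gave 1308.

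**Figure D1:**
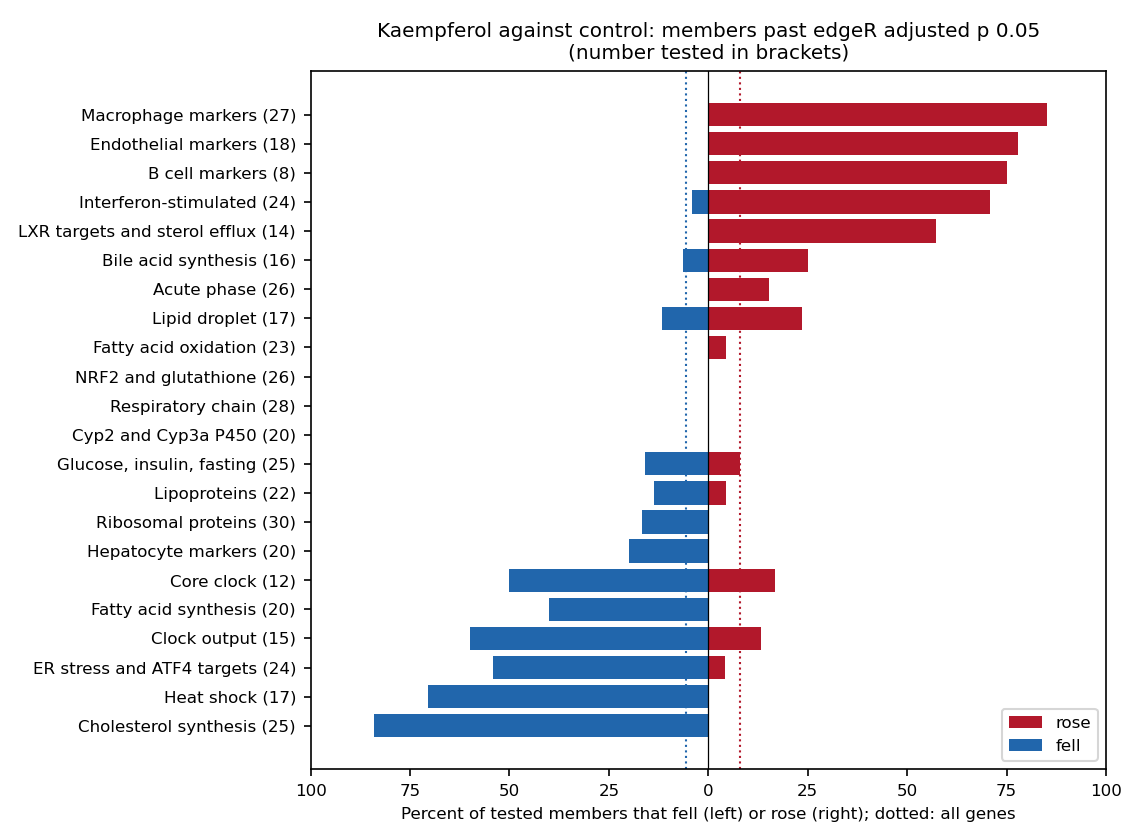
Share of tested members of 22 of the 45 gene lists that rose (right) or fell (left) in kaempferol against control by edgeR's test, with the number tested in brackets and the shares over all genes tested as dotted lines (7.86% and 5.55%). The macrophage list lies at the top with 23 of 27 members higher and the cholesterol list at the bottom with 21 of 25 lower.

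The genes farthest apart, among those with at least 5 CPM in the higher group and no overlap between libraries, fell into 2 kinds. The falling ones were Sqle, Per2, Hspa1b, Noct, Angptl8, Mvd, Mfsd2a and Per1, which belong to sterol synthesis, the clock, the heat shock response and lipid handling. The rising ones were Tmc3, Marco, Igfbp1, Spic, Cyp26b1, Adgre1, Nr1d1 and Cd5l. Of these, Marco, Spic, Adgre1 and Cd5l are macrophage genes, Igfbp1 encodes a binding protein of insulin-like growth factors and Cyp26b1 a retinoic acid hydroxylase. Cyp26b1 missed the threshold without any 1 of the 6 libraries (edgeR adjusted p up to 0.164) and with no filter on low counts.

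Most members of the cholesterol synthesis list, which also holds genes of sterol uptake and control, were lower with kaempferol. Of 25 members tested, 21 fell and none rose, against 5.55% of all genes, and the median change of the list was -1.42. All 25 fitted values were below 0, and the 4 that did not pass were Mvk at -0.87, Pmvk at -1.13, Ebp at -0.37 and Dhcr7 at -1.09. The count stayed between 19 and 24 when any 1 of the 6 libraries was left out (21 without control replicate 1). Sqle, squalene epoxidase (chromosome 15, 59315092 to 59331193 of GRCm38.p6), stood at 50.6, 27.3 and 65.7 CPM in the controls and at 1.55, 0.191 and 2.10 CPM with kaempferol. Its change of -5.18 ± 0.79 was the most negative of the list (edgeR adjusted p = 0.00284), and kaempferol replicate 5 was the lowest library. Mvd, mevalonate diphosphate decarboxylase, stood at 10.0, 17.6 and 42.2 CPM against 1.55, 1.27 and 3.52 CPM, a change of -3.45 ± 0.60. Control replicate 3 was the highest library for Mvd and control replicate 1 the lowest control. Separate ranges were required by the rule that named Mvd. Tm7sf2, a sterol reductase late in the pathway, fell from 134 ± 14.7 to 52.2 ± 7.82 CPM (SD, n = 3), a change of -1.36 ± 0.16.

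Sqle, Mvd and Tm7sf2 passed in all 6 fits that left out 1 library. Named here for their place in this control and not by the rule, Srebf2, which encodes SREBP2, changed by -0.73 and Insig1, which holds it in the endoplasmic reticulum, by -1.96.

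**Figure D2:**
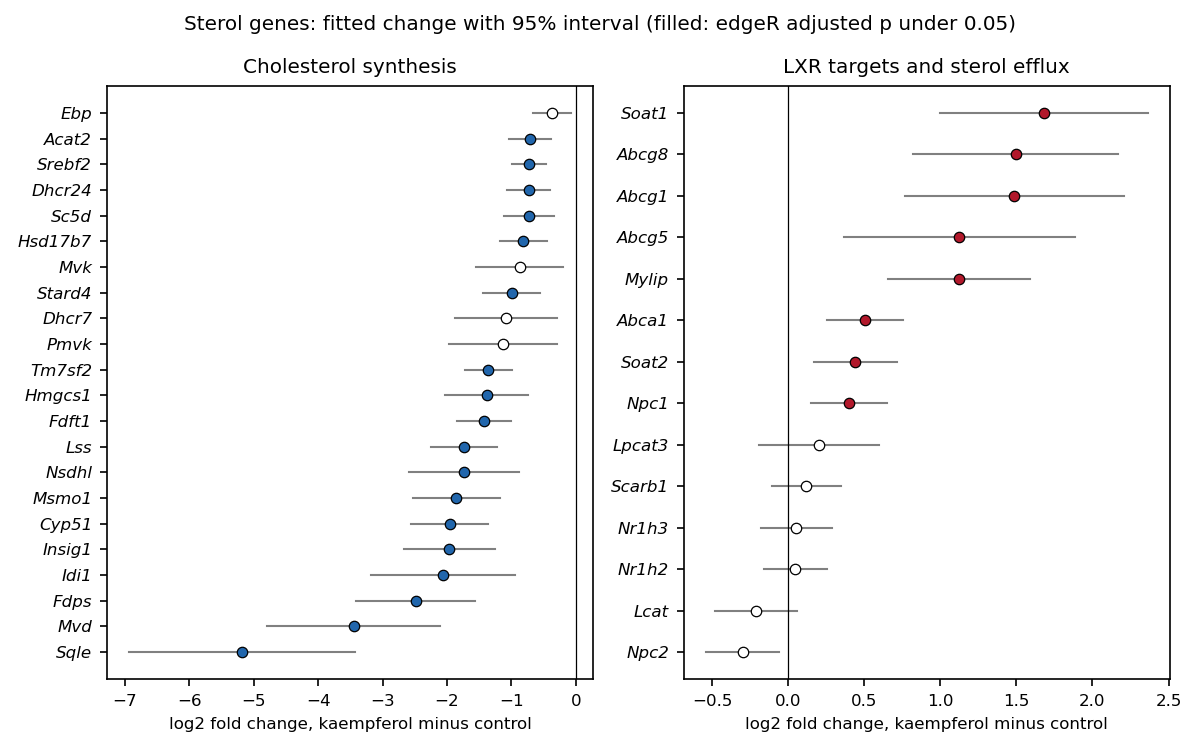
Fitted log2 fold change (points) with its 95% interval (lines) for 22 members of the cholesterol synthesis list (left) and the 14 of the LXR and sterol efflux list (right), filled where edgeR's adjusted p was under 0.05. All 22 points on the left lie below 0, and 8 of 14 on the right are filled and above 0.

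SREBP factors bind sterol regulatory elements, so the members' promoter windows, from 250 bases before to 50 after the start site, were searched for the letters CACCCCAC on both strands. A window was at hand for 17 of the 25 members, and 2 of them (11.8%) held a match, against 3.81% of 10173 tested genes with a window. In core clock genes the share was 20.0%, so the letters are not particular to this list. Hmgcs1, the enzyme that feeds the pathway, changed by -1.38 and Acat2, an acetyl-CoA acetyltransferase, by -0.71. They were chosen for this match, and the stretches below show it in capitals as read from RefSeq on GRCm38.p6 (Hmgcs1 chr13:119690189-119690248, plus strand, and Acat2 chr17:12960873-12960932, minus strand). The match begins 136 bases before the start site of Hmgcs1 and 181 before that of Acat2. A match describes the letters only and is not a measured binding site.
Hmgcs1: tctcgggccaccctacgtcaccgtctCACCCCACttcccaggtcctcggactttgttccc
Acat2: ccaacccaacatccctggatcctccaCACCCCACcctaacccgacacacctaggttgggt

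Sterol export and esterification genes were higher with kaempferol. Of 14 members of the LXR and sterol efflux list, 8 rose and none fell, against 7.86% of all genes, with a median change of 0.42. Abcg8, 1 of the 2 subunits of the transporter that sends sterols into bile (chromosome 17, 84676302 to 84700333), stood at 48.5, 46.8 and 45.4 CPM in the controls and at 139.6, 136 and 121 CPM with kaempferol. The libraries of each group lay close together and the groups far apart, with a change of 1.49 ± 0.30 (edgeR adjusted p = 0.00813). Its partner Abcg5 stood at 47.0, 56.8 and 46.0 CPM against 108, 115 and 103 CPM, a change of 1.12 ± 0.34 (edgeR adjusted p = 0.0492), without overlap. Abcg5 missed the threshold without any 1 of the 6 libraries, with an edgeR adjusted p of up to 0.146. Abca1, which loads cholesterol onto HDL, rose from 106 ± 3.71 to 151 ± 10.8 CPM (SD, n = 3), a change of 0.50 ± 0.11. Soat1, which esterifies cholesterol and is abundant in macrophages, stood at 1.20, 2.06 and 0.932 CPM against 4.32, 2.93 and 6.19 CPM, a change of 1.68 ± 0.31, with kaempferol replicate 8 the highest. Mylip, a ubiquitin ligase induced by LXR, rose by 1.12 ± 0.21. Summed macrophage markers also rose in these libraries, and their part in the values of Soat1 was not tested. The list held 5 to 7 rising members when 1 library was left out, with 5 without control replicate 1, control replicate 2 or kaempferol replicate 5.

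Part of the fat synthesis genes were lower, while the groups overlapped in the gene for SREBP1. Of 20 members of the fatty acid synthesis list, 8 fell and none rose, against 5.55% and 7.86% of all genes. The median change was -0.68 (-0.38 without control replicate 1). Fasn, fatty acid synthase (chromosome 11, 120805947 to 120825166), stood at 305, 407 and 851 CPM in the controls and at 158, 84.4 and 149.7 CPM with kaempferol. Control replicate 3 was more than double the other controls, yet the lowest control stood above every kaempferol library, and the fitted level was 3.99-fold lower (edgeR adjusted p = 0.00763). In a fit of the 6 libraries alone Fasn missed the threshold (edgeR adjusted p = 0.0611). Fads1, a desaturase of polyunsaturated fatty acids, fell from 425 ± 74.5 to 198 ± 23.1 CPM, a change of -1.10 ± 0.24. Slc25a1, the mitochondrial citrate carrier, fell by 0.43 ± 0.10, and missed the threshold without control replicate 3 (edgeR adjusted p up to 0.062). The other 5 that fell were Acly, Elovl6, Me1, Thrsp and Pnpla3, with changes from -0.84 in Elovl6 to -2.45 in Pnpla3. Srebf1, which encodes SREBP1, stood at 128, 155 and 211 CPM against 196, 152 and 180.2 CPM. The groups overlapped, and the difference of 0.10 ± 0.17 (edgeR adjusted p = 0.742) has a 95% interval of -0.27 to 0.47. Scd1, the stearoyl-CoA desaturase, overlapped as well, at -0.23 ± 0.35 (edgeR adjusted p = 0.714). The count of falling members was 3 to 10 when 1 library was left out, with 4 without control replicate 1, 3 without control replicate 3, 4 without kaempferol replicate 5, 3 without kaempferol replicate 8 and 10 without control replicate 2. With no filter on low counts it was 5.

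Triglyceride and phospholipid synthesis genes fell in 4 of 15 members, against 5.55% of all genes, and rose in none, with a median of -0.17. Gpam, the acyltransferase of the opening step, fell by 0.60 ± 0.14, Pemt, which methylates phosphatidylethanolamine, by 0.50 ± 0.11, and Pcyt2, of the ethanolamine branch, by 0.40 ± 0.10. Gpam missed the threshold without control replicate 3 (edgeR adjusted p up to 0.0514).

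Genes of lipid storage and fatty acid uptake went both ways. In the lipid droplet list 4 of 17 members rose and 2 fell, against 7.86% and 5.55% of all genes. The median was 0.12 (0.24 without control replicate 2). Rising members numbered 1 without control replicate 2 or kaempferol replicate 3, 2 without control replicate 1 or 3, 3 without kaempferol replicate 5 and 6 without kaempferol replicate 8, and falling ones 0 to 2. Pparg, a nuclear receptor that promotes fat storage, stood at 4.50, 3.80 and 3.35 CPM in the controls and at 10.5, 8.98 and 6.19 CPM with kaempferol, a change of 1.14 ± 0.22 (edgeR adjusted p = 0.00396). Ranges were separate, and kaempferol replicate 8 was the nearest to the controls. Cidec, a droplet fusion protein, rose from low levels, 0.254, 0.129 and 0.497 CPM to 2.32, 1.15 and 0.738 CPM, and Fitm1, a droplet-forming membrane protein, rose from 10.0, 6.05 and 8.76 CPM to 19.9, 30.3 and 15.6 CPM. G0s2, an inhibitor of the main triglyceride lipase, fell from 199 ± 10.0 to 43.8 ± 17.3 CPM, a change of -2.18 ± 0.55, and Hsd17b13, a lipid droplet enzyme, fell by 0.47 ± 0.13. Cidec missed the threshold without control replicate 1 or 2 or kaempferol replicate 3, Fitm1 without control replicate 2 or 3 or kaempferol replicate 3 or 5, G0s2 without control replicate 2 or 3 or kaempferol replicate 5 or 8 and Hsd17b13 without control replicate 2 or 3 or kaempferol replicate 3 or 8, with edgeR adjusted p-values of up to 0.151, 0.109, 0.0874 and 0.134. Of the adipocyte markers, which share Cidec with the droplet list, 3 of 5 rose (0 to 2 when 1 library was left out), and the defining adipocyte genes Adipoq, Plin1 and Retn were at 0 in all 6 libraries.

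In the uptake list 3 of 15 members rose and 1 fell, against 7.86% and 5.55% of all genes, so the falling share was near that of all genes. The median was 0.31. When 1 library was left out 1 to 4 rose, the lowest without control replicate 2 or kaempferol replicate 3. Lpl, lipoprotein lipase, stood at 13.5, 9.40 and 17.0 CPM in the controls and at 55.1, 49.1 and 39.4 CPM with kaempferol, a change of 1.85 ± 0.38 (edgeR adjusted p = 0.00999). Each kaempferol library was more than double the highest control. The fatty acid binding genes Fabp4 and Fabp2 rose by 0.91 ± 0.27 and 0.55 ± 0.17, and the acyl-CoA synthetase Acsl3 fell by 0.73 ± 0.20. Fabp4 missed the threshold without control replicate 2 or kaempferol replicate 3 or 8, Fabp2 without any 1 of the 6 libraries and Acsl3 without control replicate 2 or 3 or kaempferol replicate 5 (edgeR adjusted p up to 0.159, 0.143 and 0.111). Cd36, the fatty acid translocase, did not pass at 1.47 ± 0.46 (edgeR adjusted p = 0.0571). It stood at 13.2, 4.83 and 9.13 CPM against 32.0, 19.3 and 24.1 CPM, without overlap, as for 33.5% of all genes. In the fatty acid oxidation list 1 of 23 members rose, against 7.86% of all genes, with a median of 0.22 (0.11 without kaempferol replicate 5). At an unadjusted p under 0.05 there were 9, against 3702 of all 12658 genes. DESeq2 called 6 higher and 1 lower, and upper-quartile factors gave 4 higher. The count was 3 without control replicate 1 or kaempferol replicate 8 and 0 without control replicate 3 or kaempferol replicate 3. That gene was Acaa1b, a peroxisomal thiolase, at 0.65 ± 0.15, which missed the threshold without control replicate 3 or kaempferol replicate 3 (edgeR adjusted p up to 0.0585). Cpt1a, the mitochondrial entry enzyme, stood at 0.36 ± 0.12 (edgeR adjusted p = 0.0538). Of 16 PPAR alpha-induced genes 2 rose, against 7.86% of all genes. They were the pantetheinase Vnn1 at 1.90 ± 0.37 and the mitochondrial carrier Ucp2 at 1.23 ± 0.23 (edgeR adjusted p = 0.0562 in a fit of the 6 libraries alone). Ucp2 stood at 26.5, 21.3 and 44.7 CPM with kaempferol, highest in replicate 8, as were 21 of 27 macrophage markers. The part of macrophages in its values was not tested.

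The bile acid synthesis genes Cyp7a1 and Cyp8b1 did not differ beyond their spread. Cyp7a1, the rate-limiting hydroxylase, stood at 140.3, 27.0 and 24.9 CPM in the controls and at 41.7, 51.8 and 59.7 CPM with kaempferol. Control replicate 1 was far above the other controls, the fitted change of -0.33 ± 0.63 did not pass (edgeR adjusted p = 0.771), and its 95% interval was -1.72 to 1.07. Without control replicate 1 the value was 0.98, with an edgeR adjusted p of 0.146. Cyp8b1, which sets the share of cholic acid, was at -0.17 ± 0.22 (edgeR adjusted p = 0.653). In the bile acid synthesis list 4 of 16 members were higher and 1 lower, against 7.86% and 5.55% of all genes. Higher members numbered 0 without control replicate 2, 1 without kaempferol replicate 5 and 2 without control replicate 1 or 3. Hsd3b7, which alters the sterol ring, rose by 0.61 ± 0.15, Acox2, of side chain shortening, by 0.60 ± 0.14 and Amacr, a racemase of the same process, by 0.39 ± 0.11, while the reductase Akr1d1 fell by 0.50 ± 0.14. Hsd3b7 missed the threshold without control replicate 2 or kaempferol replicate 5, Acox2 without control replicate 2, Amacr without control replicate 1, 2 or 3 or kaempferol replicate 5 and Akr1d1 without control replicate 1 or 2 or kaempferol replicate 3 or 8 (edgeR adjusted p up to 0.0775, 0.0696, 0.141 and 0.13). Among 14 transport genes 2 rose and 2 fell, against 7.86% and 5.55% of all genes. The phospholipid exporter Abcb4 rose by 0.40 ± 0.12 and the basolateral exporter Abcc3 by 0.42 ± 0.12, and both missed the threshold without any 1 of the 6 libraries. The uptake transporter Slco1a4 fell by 1.10 ± 0.27 and the coreceptor Klb by 0.66 ± 0.20, and they missed it without control replicate 2 or kaempferol replicate 3 or 5 and without control replicate 1, 2 or 3 or kaempferol replicate 3 or 5, in that order. The edgeR adjusted p-values reached 0.149 for Abcb4, 0.101 for Abcc3, 0.0731 for Slco1a4 and 0.141 for Klb.

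Genes known to respond to insulin and feeding differed strongly in a few members. Of 25 genes in the glucose and insulin list 2 rose and 4 fell, against 7.86% and 5.55% of all genes. The rising share was thus near that of all genes. The median was -0.17 (-0.091 without control replicate 1 and -0.26 without control replicate 3). When 1 library was left out 2 to 4 fell, the lowest without control replicate 2 or kaempferol replicate 3 or 5. Igfbp1, which insulin represses (chromosome 11, 7197787 to 7202546), stood at 5.58, 9.34 and 4.04 CPM in the controls and at 97.0, 56.5 and 87.4 CPM with kaempferol, a change of 3.67 ± 0.59 (edgeR adjusted p = 0.00353). Irs2, an insulin receptor substrate that insulin also represses (chromosome 8, 10984681 to 11008929), stood at 8.94, 8.24 and 8.76 CPM against 30.3, 33.7 and 27.9 CPM, a change of 1.82 ± 0.31 (edgeR adjusted p = 0.00356). Libraries within each group were close for Irs2, and the groups did not overlap for either gene, as for 33.5% of all genes. Igfbp1 is also 1 of the genes farthest apart, which were picked for lack of overlap. Ppp1r3b, which targets a phosphatase to glycogen, fell from 713 ± 37.3 to 187 ± 88.1 CPM, a change of -1.93 ± 0.32. Igfbp1, Irs2 and Ppp1r3b passed in each fit that left out 1 library. Tat, a tyrosine-degrading enzyme, fell by 1.26 ± 0.33 and missed the threshold without control replicate 2 or 3 or kaempferol replicate 3 or 5 (edgeR adjusted p up to 0.0981).

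Among 22 lipoprotein genes 1 rose and 3 fell, against 7.86% and 5.55% of all genes. Angptl8, a hormone made after feeding that restrains lipoprotein lipase, stood at 253, 262 and 373 CPM in the controls and at 20.7, 13.9 and 38.9 CPM with kaempferol, a change of -3.59 ± 0.61 (edgeR adjusted p = 0.00465). Separate ranges were required by the rule that named Angptl8 among the genes farthest apart. Lipg, endothelial lipase, fell by 2.77 ± 0.57 and Sort1, a sorting receptor, rose by 0.97 ± 0.17. Mfsd2a, a transporter of lysophospholipids, fell by 3.40 ± 0.83 and missed the threshold without control replicate 2 or 3 or kaempferol replicate 3, 5 or 8 (edgeR adjusted p up to 0.079). No apolipoprotein gene of the list passed. The time since feeding was not stated for either group.

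**Figure D3:**
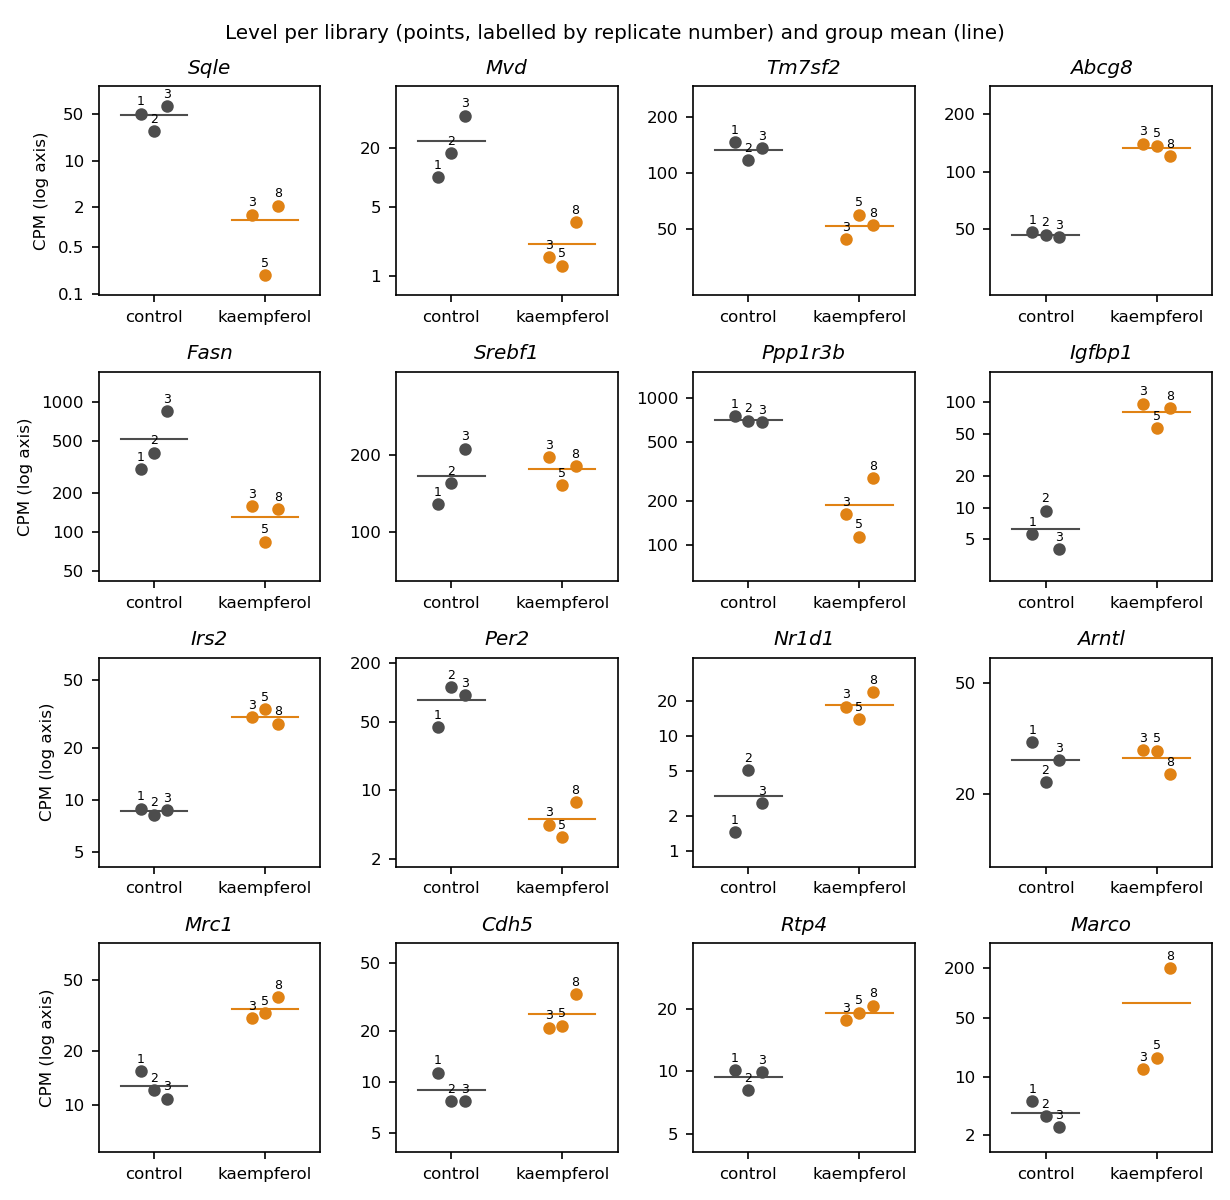
CPM in each control and kaempferol library on log axes, 1 panel per gene, with points labelled by replicate number and a line at the group mean. Of the 16 genes shown, Srebf1 and Arntl overlap between the groups, and Marco is set apart by kaempferol replicate 8.

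Clock genes differed in part of the loop. In the liver clock, ARNTL with CLOCK or NPAS2 switches on the Per, Cry and Nr1d genes, whose products repress their own activators over the day, so levels depend on the hour of collection. Of 12 core clock genes 2 rose and 6 fell, and of 15 output genes 2 rose and 9 fell, against 7.86% and 5.55% of all genes. Per2, a repressor (chromosome 1, 91415977 to 91459351), stood at 43.7, 113 and 93.0 CPM in the controls and at 4.43, 3.31 and 7.49 CPM with kaempferol, a change of -4.03 ± 0.51 (edgeR adjusted p = 0.00125). Control replicate 1 was the lowest control. Per2 is also 1 of the genes farthest apart, for which separate ranges were required. Nr1d1, the repressor REV-ERB alpha (chromosome 11, 98767932 to 98775377), moved the other way, from 1.46, 5.02 and 2.61 CPM to 17.9, 14.1 and 24.1 CPM, a change of 2.63 ± 0.42 (edgeR adjusted p = 0.0031). Levels of the activator gene Arntl, at 30.7, 22.1 and 26.5 CPM against 28.8, 28.6 and 23.6 CPM, did not differ beyond their spread (0.03 ± 0.23, edgeR adjusted p = 0.948, 95% interval -0.48 to 0.54). Dbp, a strongly rhythmic output factor, was low in every library, at 2.66, 2.83 and 1.80 CPM and 1.49, 1.27 and 1.99 CPM, and did not pass (-0.61 ± 0.58, edgeR adjusted p = 0.531).

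Among the other clock genes, Per1 changed by -3.29 ± 0.80, Cry1 by -0.85 ± 0.21 and Nr1d2 by 1.02 ± 0.29. Of the output genes, Bhlhe40, a repressor of the loop, fell by 2.16 ± 0.37, Tspan4, a tetraspanin, by 0.89 ± 0.15 and the cold-inducible RNA-binding gene Rbm3 by 0.69 ± 0.11. Nfil3, which opposes DBP on shared sites, rose by 0.82 ± 0.19 and the RNA-binding gene Cirbp by 0.71 ± 0.19, and the deadenylase Noct fell by 3.63 ± 0.88. Without control replicate 2, 2 core genes fell, and without kaempferol replicate 3 or 5 it was 2 as well. Output genes that fell numbered 3 without any 1 of these libraries, and 9 without control replicate 1. Leaving out 1 library cost no call in Per2, Nr1d1, Bhlhe40, Tspan4 or Rbm3. Per1 missed the threshold without control replicate 2 or 3 or kaempferol replicate 3 or 5, Cry1 without control replicate 2 or kaempferol replicate 3 or 5, Nr1d2 without control replicate 1 or 3 or kaempferol replicate 3, 5 or 8, Nfil3 without control replicate 2 or 3, Cirbp without control replicate 2 or 3 or kaempferol replicate 5 and Noct without control replicate 2 or 3 or kaempferol replicate 3 or 5. Their edgeR adjusted p-values then reached 0.0838, 0.0671, 0.118, 0.0601, 0.108 and 0.0835.

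The clock activators bind the E-box CACGTG. Of 10 core clock genes with a promoter window 2 held it, and of 12 output genes 4 did, against 11.5% of tested genes with a window and 23.5% of the cholesterol synthesis genes, so the letters are not particular to clock genes. The stretches of 3 fallen members show it in capitals, read from RefSeq on GRCm38.p6 (Per1 chr11:69098757-69098816, plus strand, Cry1 chr10:85185081-85185140, minus strand, and Tspan4 chr7:141476303-141476362, plus strand). It begins 166, 60 and 51 bases before the start sites of these windows, in that order. The Per1 and Tspan4 stretches lie inside the genes, which begin at 69095108 and 141475236, so these are not their outermost start sites. Tef, which also fell, held the letters in windows not shown. Bhlhe41 and Ciart held them too but did not pass (edgeR adjusted p = 0.23 and 0.0927).
Per1: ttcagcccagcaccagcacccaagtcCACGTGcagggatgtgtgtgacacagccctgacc
Cry1: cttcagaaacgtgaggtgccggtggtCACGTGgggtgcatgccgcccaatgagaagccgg
Tspan4: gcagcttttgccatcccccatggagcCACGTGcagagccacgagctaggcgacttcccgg

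Glucocorticoid-responsive genes fell in 5 of 13 members, against 5.55% of all genes, and rose in none. The median was -0.96 (-0.47 without control replicate 2). Per1 is also counted with the core clock genes and Cdkn1a with the cell cycle genes, so these falls are not separate from those. Zbtb16, a transcription factor induced by these hormones, stood at 77.6, 122 and 83.1 CPM in the controls and at 20.4, 26.7 and 27.6 CPM with kaempferol, a change of -1.92 ± 0.28 (edgeR adjusted p = 0.00159). Ddit4, an inhibitor of mTORC1, fell by 1.60 ± 0.34 (edgeR adjusted p = 0.051 in a fit of the 6 libraries alone), and Cdkn1a, a cyclin kinase inhibitor, by 1.11 ± 0.26, which missed the threshold without control replicate 2 or kaempferol replicate 3 or 5 (edgeR adjusted p up to 0.0535). The count was 2 without control replicate 2 or kaempferol replicate 3 or 5, and 3 without control replicate 3. It was 2 in a fit of the 6 libraries alone.

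Most markers of macrophages and endothelial cells were higher with kaempferol. In bulk tissue more cells of a type and more RNA per cell cannot be told apart. Of 27 macrophage markers tested 23 rose and none fell, with a median change of 1.53, and their summed level was 222 to 345 CPM in the controls and 736 to 1427 CPM with kaempferol. Mrc1, the mannose receptor of resident macrophages and sinusoidal endothelium (chromosome 2, 14229414 to 14332023), stood at 15.5, 12.1 and 10.9 CPM in the controls and at 30.5, 32.7 and 40.2 CPM with kaempferol, a change of 1.43 ± 0.18 (edgeR adjusted p = 0.000484). Msr1, a scavenger receptor, stood at 5.70, 5.15 and 4.35 CPM against 13.7, 13.5 and 16.6 CPM, a change of 1.53 ± 0.16 (edgeR adjusted p = 0.000407). Cybb, a subunit of the phagocyte oxidase, rose from 4.19 ± 0.893 to 13.6 ± 2.65 CPM, a change of 1.70 ± 0.19.

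Kaempferol replicate 8 was the highest kaempferol library for 21 of the 27 markers, and 3 of the genes farthest apart were high in it above all. Marco, a scavenger receptor, stood at 5.13, 3.35 and 2.48 CPM in the controls and at 12.3, 16.9 and 198 CPM with kaempferol. Spic, a transcription factor of red pulp and iron-handling macrophages, stood at 0.761, 0.515 and 0.373 CPM against 1.11, 1.08 and 18.2 CPM, and Tmc3 at 0.0634, 0.129 and 0.124 CPM against 0.387, 0.509 and 16.6 CPM. Without kaempferol replicate 8 their edgeR adjusted p-values were above 0.05, and all 3 also missed the threshold without control replicate 1, 2 or 3 (up to 0.132 for Marco, 0.126 for Spic and 0.118 for Tmc3). Adgre1, the macrophage marker F4/80, stood at 4.82, 5.28 and 2.48 CPM against 14.8, 13.9 and 63.6 CPM and Cd5l, a secreted Kupffer cell protein, at 27.5, 33.5 and 18.4 CPM against 93.5, 98.9 and 295 CPM. Leaving out 1 library cost no call in these 2. That every kaempferol library lay above every control was required by the rule that named them. In a fit of the 6 libraries alone both missed the threshold, with edgeR adjusted p-values of 0.0889 for Adgre1 and 0.0538 for Cd5l. Without kaempferol replicate 8 the macrophage count was 18 of 27, and it was 18 to 23 when any 1 library was left out and 15 in a fit of the 6 libraries alone. The 4 markers that did not pass were Cd163 at 1.14, Ccr2 at 1.04, Itgax at 0.45 and Trem2 at 0.46, the last a receptor of macrophages that take up lipid.

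Of 18 endothelial markers 14 rose and none fell, with a median of 0.98, and their summed level was 218 to 317 CPM in the controls and 427 to 550.1 CPM with kaempferol. Cdh5, VE-cadherin, stood at 11.3, 7.73 and 7.70 CPM in the controls and at 20.9, 21.5 and 32.8 CPM with kaempferol, a change of 1.49 ± 0.20 (edgeR adjusted p = 0.000685). Stab2, a scavenger receptor of sinusoidal endothelium, stood at 31.1, 21.3 and 19.9 CPM against 47.8, 49.8 and 61.4 CPM, a change of 1.14 ± 0.16 (edgeR adjusted p = 0.000811). Control replicate 1 was the highest control for 16 of the 18 markers, and still lay below the kaempferol libraries for these 2. Bmp2, a signal from endothelium to hepatocytes, rose by 1.42 ± 0.22. Leaving out control replicate 1 gave a count of 13, control replicate 2 gave 8, control replicate 3 gave 7 and kaempferol replicate 8 gave 8. It was 8 in a fit of the 6 libraries alone.

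B cell markers were higher at low levels. Of 8 B cell markers tested 6 rose, with summed levels of 5.80 to 6.96 CPM in the controls and 13.2 to 35.0 CPM with kaempferol, the highest in replicate 8. Cd22, a B cell receptor inhibitor, stood at 0.887, 0.709 and 0.621 CPM against 2.93, 3.37 and 6.36 CPM, a change of 2.50 ± 0.34 (edgeR adjusted p = 0.000685), and the antigen receptor component Cd79b changed by 3.20 ± 0.53. The count was 5 without kaempferol replicate 8 and 4 without control replicate 2. Of 13 T and natural killer cell markers 3 rose, against 7.86% of all genes. The granzyme Gzmb rose by 1.42 ± 0.33 and the T cell receptor components Cd3g and Cd3d by 1.87 ± 0.54 and 1.19 ± 0.36. Cd3g missed the threshold without control replicate 2 or 3 or kaempferol replicate 3 or 8 and Cd3d without control replicate 1, 2 or 3 or kaempferol replicate 3 or 5 (edgeR adjusted p up to 0.137 and 0.148). The T and natural killer count was 6 without control replicate 1, 2 without kaempferol replicate 5 or 8 and 1 without any other library, and DESeq2 called 2. Of 5 neutrophil markers tested 1 rose, against 7.86% of all genes. Csf3r, the G-CSF receptor, rose by 1.20 ± 0.34, and missed the threshold without control replicate 1, 2 or 3 or kaempferol replicate 8 (edgeR adjusted p up to 0.168). No stellate cell, bile duct, red cell or exocrine pancreas marker passed edgeR. At an unadjusted p under 0.05 there were 1 of 16, 2 of 9, 0 of 6 and 1 of 2 of them, in that order, and DESeq2 called 1 stellate cell marker and 1 bile duct marker. Kaempferol replicate 5 stood apart in the 16 stellate cell markers, with 1 above every control, against 14 in replicate 3 and 13 in replicate 8, and 2 rose when it was left out. Their smallest edgeR adjusted p-values were 0.107 for the collagen gene Col4a1, 0.0526 for the duct factor Sox9, 0.306 for the heme enzyme Alas2 and 0.0709 for the elastase Cela2a.

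**Figure D4:**
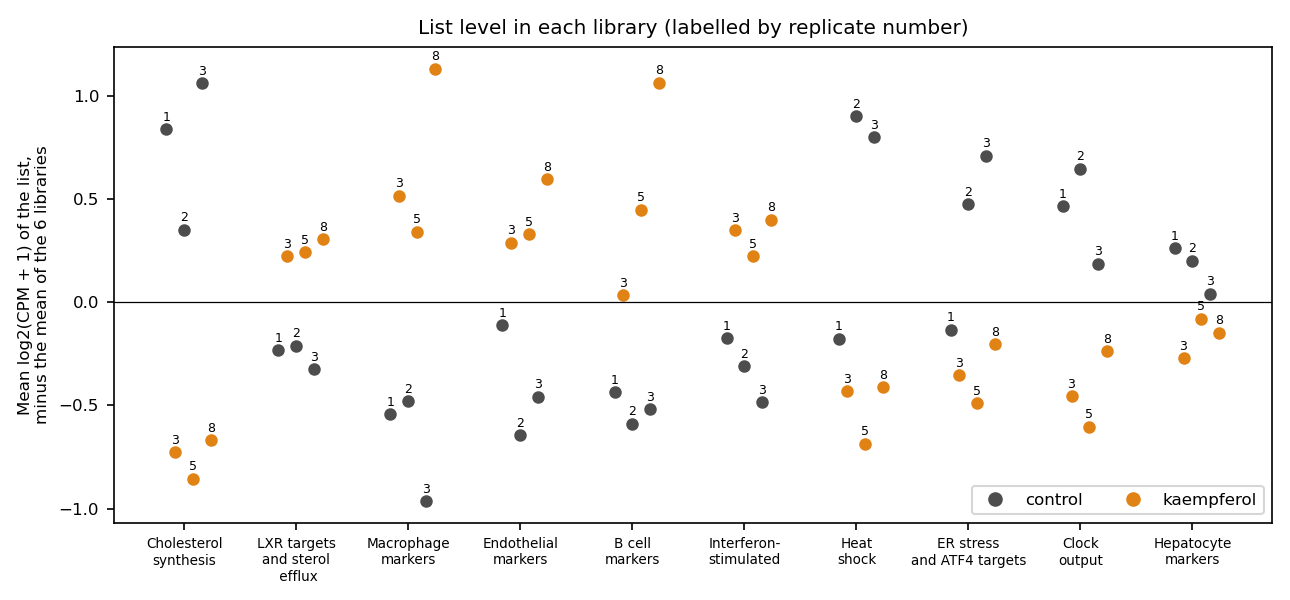
Mean log2(CPM + 1) of the tested members of 10 lists in each library, as the difference from the mean of the 6 libraries, with points labelled by replicate number. The groups are separate in every list shown, control replicate 1 lies nearest to the kaempferol libraries for heat shock at -0.18 against 0.90 and 0.80 in the other controls, and kaempferol replicate 8 is highest for macrophage markers at 1.13.

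Interferon-stimulated genes were higher as a group. Of 24 tested 17 rose and 1 fell, with a median change of 0.77. Rtp4, a chaperone of membrane receptors, stood at 10.1, 8.12 and 9.88 CPM in the controls and at 17.7, 19.1 and 20.7 CPM with kaempferol, a change of 1.03 ± 0.15 (edgeR adjusted p = 0.000927). Cmpk2, a mitochondrial nucleotide kinase, stood at 5.83, 5.02 and 4.66 CPM against 10.5, 10.3 and 12.5 CPM, a change of 1.10 ± 0.17 (edgeR adjusted p = 0.00134). Ifit3, an antiviral effector, rose from 7.23 ± 1.44 to 14.8 ± 0.478 CPM, a change of 1.03 ± 0.17. The libraries of each group lay close together in all 3 genes, which their choice by smallest p favours. Stat2, a signal transducer of the interferon receptor, was the member that fell, by 0.63 ± 0.12. The count was 17 without control replicate 1, 14 without kaempferol replicate 8 and 11 without control replicate 3. Whether the signal came from hepatocytes or from the other cell types that were higher was not tested.

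In the antigen presentation list 4 of 17 members rose, against 7.86% of all genes, and none fell. The median was 0.55 (0.26 without kaempferol replicate 3). The immunoproteasome subunit Psmb9 rose by 0.80 ± 0.20, the peptide transporter Tap1 by 0.55 ± 0.14 and their regulator Nlrc5 by 0.69 ± 0.20. The count was 0 without control replicate 2 or 3, 1 without kaempferol replicate 3 and 2 without kaempferol replicate 8, and 7 without control replicate 1. Of 26 acute phase genes 4 rose, against 7.86% of all genes, and none fell. Their median was 0.26 (0.051 without kaempferol replicate 3 and 0.12 without control replicate 3). Saa3, a serum amyloid that macrophages and hepatocytes make, stood at 13.5, 8.18 and 6.71 CPM in the controls and at 28.9, 27.2 and 19.2 CPM with kaempferol, a change of 1.41 ± 0.26 (edgeR adjusted p = 0.0037). The endotoxin-binding genes Cd14 and Lbp rose by 1.52 ± 0.42 and 0.52 ± 0.16, and missed the threshold without control replicate 1 or 2 or kaempferol replicate 8 and without control replicate 1 or 3 or kaempferol replicate 3 or 5, in that order (edgeR adjusted p up to 0.158 and 0.13). The count was 2 without control replicate 1, 2 or 3 or kaempferol replicate 3 or 5, and 6 without kaempferol replicate 8.

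Heat shock genes were lower in most members, and the size of the difference depended on which control was read. Of 17 heat shock genes 12 fell and none rose, with a median of -0.91. Dnajb1, a cochaperone of HSP70, stood at 34.1, 70.1 and 72.7 CPM in the controls and at 20.4, 16.3 and 18.7 CPM with kaempferol, a change of -1.67 ± 0.29 (edgeR adjusted p = 0.00377). Control replicate 1 lay between the other controls and the kaempferol libraries. Dnajb4, of the same family, fell by 1.16 ± 0.20 and Hspa4l, an HSP110 protein, by 0.91 ± 0.16. Hspa1b, an inducible HSP70 with a near-identical copy in Hspa1a, stood at 28.1, 245 and 249 CPM against 14.5, 9.23 and 15.2 CPM. Its change of -3.74 ± 0.90 missed the threshold without control replicate 2 or 3 or kaempferol replicate 3, 5 or 8 (edgeR adjusted p up to 0.0758). Leaving out control replicate 1 gave 13 falling members, control replicate 2 or 3 gave 5 and kaempferol replicate 3 or 5 gave 6. It was 6 in a fit of the 6 libraries alone.

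Of 24 endoplasmic reticulum stress genes 13 fell and 1 rose, with a median of -0.78 (-0.50 without control replicate 3). Ddit3, the stress transcription factor CHOP, stood at 17.0, 41.5 and 58.7 CPM in the controls and at 6.70, 4.39 and 6.41 CPM with kaempferol, a change of -2.74 ± 0.38 (edgeR adjusted p = 0.00134). Control replicate 1 was the lowest control and still lay above every kaempferol library. Dnajc3, an inhibitor of the stress kinases, fell by 0.72 ± 0.12 and Edem1, which clears misfolded proteins, by 0.62 ± 0.10. Chac1, a glutathione-degrading enzyme and ATF4 target, was the member that rose, from 1.58, 0.966 and 1.55 CPM to 7.30, 8.91 and 3.35 CPM, and missed the threshold without control replicate 1, 2 or 3 or kaempferol replicate 3 or 5 (edgeR adjusted p up to 0.107). Leaving out control replicate 1 gave 15 falling members, control replicate 2 gave 9, control replicate 3 gave 8 and kaempferol replicate 3 gave 9. It was 5 in a fit of the 6 libraries alone. Immediate early genes, which respond to tissue handling, held 1 falling member of 18, a share near the 5.55% of all genes. The count was 3 without kaempferol replicate 8. The falling member was Jun, at -1.05 ± 0.29. It missed the threshold without control replicate 3 or kaempferol replicate 3 or 5 (edgeR adjusted p up to 0.118).

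A few hepatocyte markers fell. Of 20 tested 4 fell, against 5.55% of all genes, and none rose. The median was -0.20 (-0.35 without kaempferol replicate 5), and DESeq2 called 7 lower. Hnf4a, a master regulator of hepatocyte genes, stood at 864, 1154 and 843 CPM in the controls and at 491, 461 and 549.7 CPM with kaempferol, a change of -0.93 ± 0.15 (edgeR adjusted p = 0.00134). Foxa3, a pioneer factor of the same cells, stood at 76.6, 81.2 and 68.0 CPM against 25.5, 33.3 and 34.4 CPM, a change of -1.28 ± 0.19 (edgeR adjusted p = 0.00116). Leaving out 1 library cost no call in either. The summed hepatocyte markers took 132647 to 149319 CPM in the controls and 96445 to 122546 CPM with kaempferol. The endothelial and macrophage markers rose in the same libraries, and their part in the lower hepatocyte values was not tested. The count was 2 without control replicate 2 or kaempferol replicate 3 or 5.

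The same genes were also set against the model group, which had the cholesterol diet described above and no compound, in the same fit. This comparison shares the kaempferol libraries with the one above. The labels give the composition of the diet for the model group only, so diet as well as compound may differ. No fit of this comparison left out a library. Between kaempferol and model 5 of 12658 genes passed (0.0395%), against 1697 between kaempferol and control. Srebf1 was one, at 379.7 ± 37.5 CPM in the model and 176 ± 22.1 CPM with kaempferol, a difference of -1.11 ± 0.17 (edgeR adjusted p = 0.0224), with 165 ± 42.2 CPM in the control. The kaempferol level lay beside that of the control in Srebf1 and below that of the model. Saa3 stood at 7.68 ± 1.81 CPM in the model and 25.1 ± 5.20 CPM with kaempferol (1.71 ± 0.26, edgeR adjusted p = 0.0288), and its kaempferol level also differed from the control, as above. Nat8f6 was another and is named here after its values were seen. An acetyltransferase homolog with near-identical relatives, it stood at 3.27 ± 0.607 CPM in the model, 0.699 ± 0.187 CPM with kaempferol and 1.43 ± 0.167 CPM in the control. Among the genes described above, kaempferol minus model was 0.36 ± 0.29 for Abcg8, 0.45 ± 0.50 for Igfbp1 and 0.45 ± 0.17 for Mrc1. Their edgeR adjusted p-values were 0.726, 0.82 and 0.286. None of these 3 passed, which does not show that the levels are equal. Some other genes differed more without passing, at -2.45 ± 0.50 for Per2, -1.52 ± 0.38 for Fasn and 1.65 ± 0.39 for Nr1d1. Their edgeR adjusted p-values were 0.0969, 0.153 and 0.133.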

How the data were processed

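Liver RNA libraries were grouped by their titles. HISAT2 2.1.0, Bowtie2 2.3.4.3, RSEM 1.3.1, DESeq2 1.4.5 and the build GRCm38.p6 are named in the submitters' processing notes, without saying which step each served. For 16809 genes the authors deposited an expected count in every library, and 5.37% of these are not whole. The deposited FPKM, TPM, means and authors' comparisons were not used, since none of the comparisons sets kaempferol against control.

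Expected counts were rounded, and filterByExpr left 12658 genes. With TMM factors, edgeR 4.0.16 (R 4.3.3) fitted its robust quasi-likelihood model to all 15 libraries with a mean for each group, which left 10 residual degrees of freedom. The common biological coefficient of variation was 0.155. SE is the absolute log2 fold change over the square root of F, and the 95% intervals built on it are approximate. On simulated counts of 12658 genes with 200 changed, the fit recovered 87% of 2-fold and 100% of 4-fold changes with 8 false calls. Every simulated gene had the common coefficient of variation and no library stood apart. The simulation thus checks the code, and its rates do not carry over to the real genes. Alternatives were RLE or upper-quartile factors, no filter, DESeq2 1.42.0, the 6 libraries alone, and each of them left out. Totals of 15.99 to 17.4 M expected counts limit the precision for genes at low CPM.

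The 45 gene lists and the rule for named genes were chosen with earlier results of these data known. The rule takes 17 fixed genes, the 8 largest passing changes per direction without overlap and with at least 5 CPM, up to 3 passing members per list and direction by smallest p, and the smallest p of a list with none. Choice by smallest p favours genes with little spread within a group, so close libraries in such genes are no further support. Strand was not given in the sources used here, so overlapping genes may share reads. Values of near-identical genes (Hspa1a and Hspa1b, the Saa, Cyp2c and Nat8 families, and Ugt1a, whose members share exons) are uncertain. Promoter windows come from RefSeq. Some members of the lists are counted but not reported here by name.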

Additional observations from a re-analysis of the deposited data

How the results depend on the processing

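The number of genes that passed was 1697, with 995 higher and 702 lower. With only the 6 libraries of the comparison it was 1075, with 583 higher, and 973 of these genes were among the 1697. Leaving out 1 of the 6 libraries gave 766 to 1941 genes passing, 457 to 1081 higher and 309 to 860 lower. DESeq2 gave 1975, no filter 1576, RLE factors 1702 and upper-quartile factors 1749, each within 1.5 times. None of the 1697 genes changed sign in any of these fits that tested it. The share of calls that were higher was 58.6%, and 66.4% with upper-quartile factors.

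Among the named genes, 116 passed, and 64 of these held in all 6 fits that left out 1 library. The other 52 missed the threshold without some library, with highest edgeR adjusted p-values of 0.0514 to 0.187. In the fit of the 6 libraries alone 28 of the 116 missed it. DESeq2 called 113 of the 116. Fitted values changed sign for 6 genes that did not pass, and the cause was not tested. Leaving out 1 library gave -0.71 to 0.98 for Cyp7a1, -0.34 to 0.014 for Cyp8b1, -0.056 to 0.31 for Srebf1 and -0.68 to 0.18 for Scd1, with the other sign without control replicate 1. It gave -0.077 to 0.29 for Cyp1a1, with the other sign without kaempferol replicate 8. It gave -0.084 to 0.15 for Arntl, below 0 without control replicate 2 or kaempferol replicate 3 or 5. No paired analysis was possible because the kaempferol and control libraries share only the replicate number 3. With 3 libraries a group and a median SE of 0.16, small changes were not detectable.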

Other observations

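Metal and iron genes were lower where they passed. Of 25 members 7 fell, against 5.55% of all genes, and none rose. Smad7, an inhibitor of TGF-beta and BMP signals, stood at 46.1, 22.9 and 29.0 CPM in the controls and at 9.63, 8.53 and 11.9 CPM with kaempferol, a change of -1.71 ± 0.28 (edgeR adjusted p = 0.00279). The zinc exporter Slc30a1 stood at 54.2, 61.8 and 55.3 CPM against 34.3, 34.3 and 34.5 CPM, a change of -0.73 ± 0.10 with very little spread among the kaempferol libraries, and the manganese exporter Slc30a10 changed by -0.63 ± 0.12. Leaving out 1 library cost no call in these 3. Bmp2, an upstream ligand of SMAD signalling, rose in the same libraries.

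In drug metabolism and redox defence no call was made outside the conjugation enzymes. None of 20 Cyp2, Cyp3a and related genes, 26 NRF2 and glutathione genes or 11 aryl hydrocarbon receptor genes passed edgeR, and their medians were 0.02, 0.06 and -0.10, which ranged from -0.13 to 0.07, 0.04 to 0.13 and -0.12 to 0.10 when 1 library was left out. At an unadjusted p under 0.05 there were 0, 5 and 0 of them, against 3702 of all 12658 genes, and DESeq2 called 0, 2 and 0. The nearest of the aryl hydrocarbon receptor list was the repressor Tiparp at -0.41 ± 0.19 (edgeR adjusted p = 0.175). The receptor's classical target Cyp1a1 was at about 1 CPM in every library, at 1.14, 1.16 and 0.994 CPM against 0.941, 1.15 and 1.53 CPM (0.14 ± 0.30, edgeR adjusted p = 0.805). Of 19 conjugation enzymes 3 fell, against 5.55% of all genes. Ugt1a5 fell by 2.16 ± 0.40, Ugt1a9 by 1.46 ± 0.35 and the sulfotransferase Sult1a1 by 0.88 ± 0.22. Ugt1a9 missed the threshold without control replicate 2 or 3 or kaempferol replicate 3 or 8, and Sult1a1 without control replicate 1 or 2 or kaempferol replicate 3 or 5.

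Ribosomal protein genes were lower by small amounts, with fitted values below 0 in all 30 and a median of -0.28 (-0.23 with upper-quartile factors). Of these 5 fell, against 5.55% of all genes, or 2 with upper-quartile factors or no filter. The count was 3 without control replicate 1, 8 without kaempferol replicate 5 and 0 without any other library. Kaempferol replicate 5 was the highest kaempferol library for 29 of the 30, and for 27 of 28 respiratory chain genes, of which none passed edgeR, none had an unadjusted p under 0.05 and none was called by DESeq2 (median -0.10, and -0.21 to -0.01 when 1 library was left out). Of 19 male-biased genes none passed edgeR, 3 had an unadjusted p under 0.05 and 2 were called by DESeq2, and kaempferol replicate 5 was the highest kaempferol library for 18 of them. Selenbp2 was the nearest at 1.56 ± 0.48 (edgeR adjusted p = 0.054). Of 10 female-biased genes tested 1 rose and 1 fell, against 7.86% and 5.55% of all genes. The steroid hydroxylase Cyp17a1 fell by 2.37 ± 0.53 and Tox rose by 1.22 ± 0.35. Tox missed the threshold without control replicate 2 or 3 or kaempferol replicate 3. None of 14 growth hormone and IGF1 genes passed edgeR or DESeq2, and 4 had an unadjusted p under 0.05, against 3702 of all 12658 genes. Igf1 was nearest at -0.34 ± 0.13 (edgeR adjusted p = 0.0862).

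Among 26 complement and coagulation genes 2 fell and among 26 amino acid genes 1 fell, shares near the 5.55% of all genes. The lectin Mbl2 fell by 0.83 ± 0.20, kininogen Kng1 by 0.47 ± 0.11 and the urea cycle lyase Asl by 0.59 ± 0.16. Mbl2 missed the threshold without control replicate 2 or kaempferol replicate 3 or 5 and Asl without control replicate 1 or 2 or kaempferol replicate 3 or 8. Of 22 cell cycle genes Cdkn1a fell and no other passed, a falling share near the 5.55% of all genes. An unadjusted p under 0.05 was found for 5, against 3702 of all 12658 genes, and DESeq2 called 1 higher and 1 lower. Without control replicate 1, 4 rose.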
